A study of Mus musculus with 8 samples.

Results

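Stretches of the mouse genome in which SRSF3-GFP iCLIP cDNAs lay on both DNA strands are described here. A stretch counted as a both-strand window if a 10 kb window of an assembled nuclear chromosome held 50 or more cDNAs in the merged track and the weaker strand, the one with fewer cDNAs, held 20% or more of them. Of 191594 nuclear windows with any cDNA, 23031 held 50 or more, and 1734 of these were both-strand windows, 7.53% (Wilson 95% interval 7.20% to 7.88%). The strand counts of the merged track chose the windows, so the weaker strand's share in that track is a description and not a finding.

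The series holds 8 mouse samples, of which the 2 iCLIP replicates are used here. They are neonatal cardiomyocytes from C57BL/6 mice at P0-1 that received modRNA for SRSF3-GFP (15 µg) and were crosslinked after 48 h with UV light (254 nm, 100 mJ). Both replicates carry the tagged protein, and no library without the tag or without the antibody is used here, so a window covered by cDNAs cannot be told from background binding. Nothing in the labels ties the replicates to separate cultures, so differences between them may be technical, and the headers give both the same library identifier. RNA abundance is not measured by these tracks either, and cDNA counts also follow it. Replicate 1 held 815414 cDNAs and replicate 2 held 2253688. The merged track held 4207555 cDNAs from 5 libraries, and the 3 libraries besides the replicates, called the other libraries below, made up 1138453 of them.

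SRSF3 is a small SR protein that binds RNA and acts in splicing, polyadenylation site choice and mRNA export. iCLIP records the nucleotide at which reverse transcription stopped beside the crosslinked protein and keeps the strand of the RNA. Transcripts that run towards each other, tail to tail, are called convergent, and a pair that runs apart from neighbouring promoters, head to head, is called divergent. Transcription usually continues past the polyadenylation site before it ends, and many mammalian loci also carry antisense transcripts that overlap a gene on the other strand. On a map with the plus strand reading left to right, a convergent pair has plus-strand RNA on the left and minus-strand RNA on the right, and a divergent pair has the reverse.

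Signal on both strands was the exception. The median window with 50 or more cDNAs had 1.19% of them on its weaker strand (quartiles 0% and 3.64%), and 8514 such windows, 37.0%, had none. Both-strand windows had a median share of 33.0% (quartiles 25.6% and 41.0%) and a median of 78 cDNAs, 26 of them on the weaker strand. They held 3.96% of all cDNAs of the merged track, those outside windows with 50 or more included. Of the weaker-strand cDNAs of windows with 50 or more, they held 53.8%, a share that the rule raises because it chooses on that strand. The minus strand was the weaker in 896 of them and the plus strand in 827, with 11 ties. The limit of 20% cut a continuous distribution: 1252 windows had shares from 10% to below 20%, and 696, 530 and 508 members had shares of 20% to 30%, 30% to 40% and 40% to 50%.

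**Figure D1:**
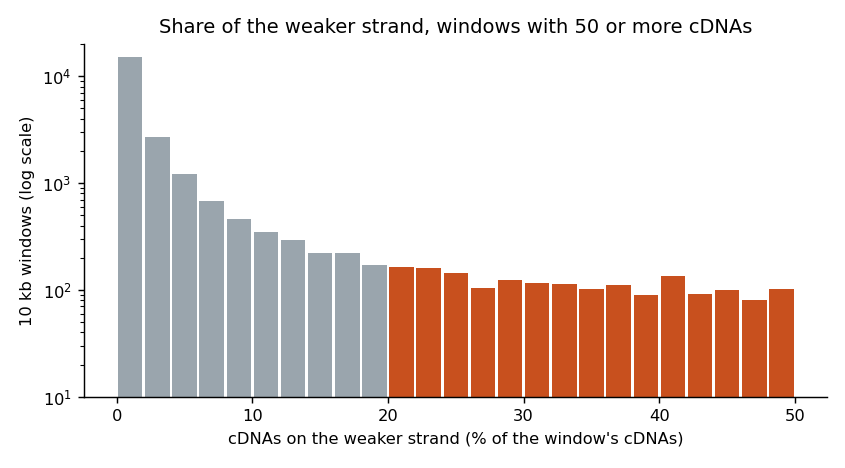
Number of 10 kb windows (log scale) by the weaker strand's share of the cDNAs, in steps of 2 percentage points, for the 23031 windows with 50 or more cDNAs in the merged track, with both-strand windows in orange. The first step, below 2%, holds 15028 windows, and from 20% to 50% each step holds between 80 and 163.

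Windows just inside and outside the limit had similar counts. With 200 or more cDNAs, the 3 members nearest to it were chr7:148440001-148450000 with 163 plus and 42 minus cDNAs (20.5%), chr11:102920001-102930000 with 174 and 45 (20.5%) and chr5:145020001-145030000 with 233 and 61 (20.7%). The 3 nearest windows left out were chr1:52220001-52230000 with 232 plus and 57 minus cDNAs (19.7%), chr14:31820001-31830000 with 40 and 165 (19.5%) and chr11:107970001-107980000 with 190 and 46 (19.5%).

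Strongly covered windows less often qualified as both-strand windows. The rule sets the weaker strand's limit as a share of the window's total, so a deeper window needs more weaker-strand cDNAs to qualify. The shares by depth therefore describe the rule's outcome and do not tell whether deep windows had fewer weaker-strand cDNAs. The share of windows that qualified was 8.03% at 50 to 99 cDNAs (1187 of 14781, Wilson 95% interval 7.60% to 8.48%), 7.62% at 100 to 199 (6.98% to 8.31%), 4.37% at 200 to 399 (3.49% to 5.47%) and 2.0% at 400 or more (10 of 501, 1.09% to 3.63%). Chromosomes also differed. Chromosome 11 had 181 both-strand windows of 1841 (9.83%, 8.55% to 11.3%) and chromosome 7 had 130 of 1331 (9.77%, 8.29% to 11.5%). At the other end, chromosome X had 15 of 482 (3.11%, 1.89% to 5.07%). Chromosome Y had 3 windows with 50 or more cDNAs and no both-strand window (Wilson upper bound 56.1%).

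How the strands lay within a window was described by 2 measures of the positions of the cDNAs, taken from the same merged track that chose the windows. The separation score is the best result of cutting the window at a single breakpoint, as the mean of the share of plus cDNAs on one side and of minus cDNAs on the other; it is 1 when each strand keeps to its own side. The second measure is the share of weaker-strand cDNAs in mixed 1 kb tiles, those with 5 or more cDNAs and 20% or more of them on each strand. Windows with a score of 0.9 or more were called separated, those below it with 50% or more of the weaker strand in mixed tiles interleaved, and the rest blocks.

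With these limits interleaved windows were the largest class. They numbered 983 of 1734, 56.7% (Wilson 95% interval 54.3% to 59%), against 421 separated windows, 24.3% (22.3% to 26.4%), and 330 block windows, 19% (17.3% to 20.9%). In interleaved windows the median separation score was 0.68 and 77.3% of the weaker strand's cDNAs lay in mixed tiles, which were a median of 5 of the 10 tiles. The middle 90% of the weaker strand's cDNAs spanned a stretch that was covered to a median of 92.7% by that of the stronger strand, against 8.53% in separated windows. A weaker-strand cDNA lay a median of 60 nt from the nearest stronger-strand position in interleaved windows, 160 nt in blocks and 512 nt in separated windows. Within 100 nt of one lay 64.4%, 39.9% and 19.8% of the weaker-strand cDNAs. The classes were set from these same positions, so the contrasts in span and distance describe the classes and are not separate findings. The distances also depend on how densely the stronger strand was covered. Where interleaved windows ended and blocks began depended on the size of the tiles. With tiles of 500 nt and the same minimum of 5 cDNAs per tile, 30.4% of windows were interleaved. Blocks then became the largest class, with 45.3% (786 of 1734). Smaller tiles hold fewer cDNAs and reach that minimum less often, and this was not told apart from the distance between the strands.

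**Figure D2:**
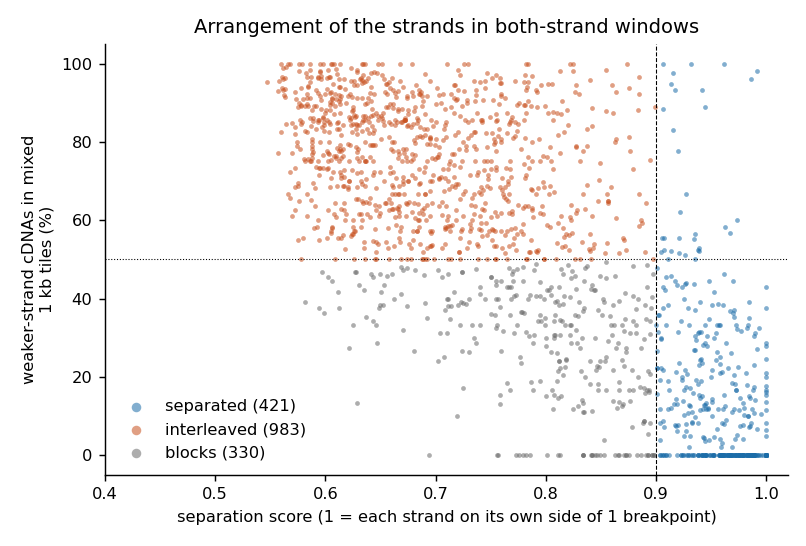
Separation score (x axis) against the percentage of weaker-strand cDNAs in mixed 1 kb tiles (y axis) for the 1734 both-strand windows, 1 point each, coloured by class, with dashed and dotted lines at the limits of 0.9 and 50%. The 983 interleaved windows fill the upper left with a median score of 0.68, and the 421 separated windows lie at the right edge, with only 33 of them above 50%.

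Separated windows were mostly divergent, with minus-strand cDNAs on the left and plus-strand cDNAs on the right. Of the 421, 334 were divergent, 79.3% (Wilson 95% interval 75.2% to 82.9%), and 87 convergent. The medians of the strands lay 4156 nt apart in the typical divergent window (quartiles 3134.5 and 4879.75 nt) and 4913 nt apart in the typical convergent one (3856.5 and 5940 nt). Convergent windows were the deeper ones, with a median of 91 cDNAs against 69.5. At 50 to 99 cDNAs 264 of 312 separated windows were divergent, 84.6% (80.2% to 88.2%), and at 100 or more 70 of 109, 64.2% (54.9% to 72.6%). The divergent share also moved with the limit of the score, to 62.4% at 0.8 and 90.7% at 0.95. It was 48.6% when windows were chosen and read without replicate 2, which left 531 windows, and the cause of that change was not tested. In the other classes most windows were convergent, 686 of 983 interleaved ones (69.8%) and 199 of 330 blocks (60.3%). The divergent majority was thus limited to separated windows.

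The separated windows with the most weaker-strand cDNAs, in contrast, were mainly convergent, 8 of the first 10. The clearest broad case was chr17:35280001-35290000. Replicate 1 had 47 plus and 51 minus cDNAs there, replicate 2 had 92 and 107, and the other libraries had 70 and 114. By 1 kb tile the plus strand had 56, 70 and 45 cDNAs in the first 3 tiles and 1 in the sixth, while the minus strand had 2 in the first tile, 18 in the sixth and 93 in the eighth. The separation score was 0.97, and all 3 sources of cDNAs covered both strands.

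A similar turn from plus to minus strand was found in chr5:23940001-23950000, with a score of 0.96. Here replicate 1 held 39 plus and 48 minus cDNAs, replicate 2 held 82 and 102, and the other libraries 27 and 72. The eighth tile had no plus-strand and 68 minus-strand cDNAs. In chr10:127920001-127930000 (score 0.93) the counts were 32 and 36 in replicate 1, 116 and 70 in replicate 2 and 50 and 34 in the other libraries. In chr14:21540001-21550000 (0.90) they were 33 and 36, 115 and 74, and 28 and 33. In these last windows the minus strand was the stronger in replicate 1 and the plus strand in replicate 2, but no difference in strand counts between the replicates passed the adjusted test described below.

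The deepest both-strand window was chr11:58820001-58830000, with 765 plus and 206 minus cDNAs. It was only just separated, with a score of 0.91, and 55.3% of its minus-strand cDNAs lay in mixed tiles: the seventh tile held 48 plus and 55 minus cDNAs and the eighth 28 and 59. Its minus-strand share was 25.6% in replicate 1 (Wilson 95% interval 20.2% to 31.8%), 20.1% in replicate 2 (17.1% to 23.5%) and 19.6% in the other libraries. The window to its left, chr11:58810001-58820000, was itself a member, interleaved, with 399 plus and 123 minus cDNAs.

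The remaining 2 of the 10 were divergent. In chr8:11310001-11320000 the minus strand filled the first 3 tiles with 42, 58 and 72 cDNAs and the plus strand all later ones with 13 to 37. Its strands were nearly balanced, with 35 plus and 34 minus cDNAs in replicate 1, 100 and 103 in replicate 2 and 28 and 40 in the other libraries, and the score was 0.98. In chr15:76070001-76080000 (score 0.99) 97 minus-strand cDNAs lay in the first 4 tiles and 16, 51 and 59 plus-strand cDNAs in the last 3, with none on either strand in the sixth and seventh and 4 other plus-strand cDNAs before them. Replicate 1 had 26 plus and 18 minus cDNAs there, replicate 2 had 70 and 55, and the other libraries 34 and 24.

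Compact sites made up the remaining kind of separated window. In chr6:47730001-47740000, 99.8% of the 644 plus-strand cDNAs fell within a stretch of 200 nt, the middle 90% of them between 47731621 and 47731692, and 99.6% of the 266 minus-strand cDNAs within another, between 47738097 and 47738180. Replicate 1 held 132 plus and 47 minus cDNAs, replicate 2 held 367 and 132, and the other libraries 145 and 87. The minus-strand share was 26.3% in replicate 1 and 26.5% in replicate 2, and 37.5% in the other libraries.

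Another such pair lay 144 nt apart, measured between strand medians, in chr16:35980001-35990000. There 99.7% of 295 minus-strand cDNAs fell within 200 nt, the middle 90% between 35981831 and 35981877, and 83.1% of 148 plus-strand cDNAs within 200 nt on their left. A single tile held 123 plus and 294 minus cDNAs. The plus-strand share was 35.3% in replicate 1, 33.0% in replicate 2 and 32.9% in the other libraries. Such concentration was rare: the weaker strand had 80% or more of its cDNAs within 200 nt in 36 both-strand windows, 23 of them separated, 7 interleaved and 6 blocks.

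One separated window differed between the sources of cDNAs. chr2:130100001-130110000 held 329 plus and 197 minus cDNAs with a score of 0.97, plus on the left and minus on the right. The minus strand had 58.8% of the cDNAs in replicate 1 (33 plus, 47 minus) and 54.6% in replicate 2 (89 plus, 107 minus), but 17.2% in the other libraries (207 plus, 43 minus; adjusted p = 2.00e-16 for both replicates against the other libraries, Fisher's exact test). Which strand counted as the weaker was thus set by the other libraries.

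Interleaved windows had both strands over the same kilobase. Among the 10 with the most weaker-strand cDNAs, 4 lay side by side on chromosome 7. In chr7:150450001-150460000 all 10 tiles were mixed, with 13 to 53 plus-strand and 9 to 44 minus-strand cDNAs per tile. Replicate 1 held 46 plus and 25 minus cDNAs, replicate 2 held 159 and 122, and the other libraries 39 and 37. All 10 tiles were also mixed in the next 2 windows, chr7:150460001-150470000 (255 plus, 168 minus) and chr7:150470001-150480000 (179 plus, 143 minus). Only 14 of the 983 interleaved windows, 1.42%, were mixed in every tile (Wilson 95% interval 0.85% to 2.38%).

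In other interleaved windows 1 strand covered part of the window only. chr10:80660001-80670000, with 154 plus and 160 minus cDNAs, had plus-strand cDNAs in every tile and minus-strand cDNAs mainly in the second and the 3 tiles after it, which held 19, 41, 59 and 28. The windows on both sides of it were dominated by the plus strand. Its plus-strand share, the weaker by 6 cDNAs, was 50.7% in replicate 1, 52.7% in replicate 2 and 36.1% in the other libraries. In chr14:21510001-21520000, 8 tiles were mixed and 97.5% of the plus-strand cDNAs lay in them. Replicate 1 had 24 plus and 39 minus cDNAs there, replicate 2 had 56 and 115, and the other libraries 39 and 42. chr2:26240001-26250000 was balanced in both replicates, with 16 plus and 18 minus cDNAs in replicate 1 and 54 and 58 in replicate 2. In chr4:147240001-147250000 the plus strand held 40.4% of the cDNAs in replicate 1 and 46.7% in replicate 2.

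The sources of cDNAs disagreed on chr10:126730001-126740000, which held 140 plus and 393 minus cDNAs. The plus strand had 47.9% in replicate 1 (23 of 48 cDNAs) and 60.3% in replicate 2 (91 of 151), and 7.78% in the other libraries (26 of 334; adjusted p = 6.29e-32 against both replicates, Fisher's exact test). The same was seen in chr11:106110001-106120000, which looked balanced only in the sum: the plus strand had 57.6% in replicate 1, 76.7% in replicate 2 and 19.3% in the other libraries (adjusted p = 2.34e-10, Fisher's exact test). In the last of the 5 most balanced windows, chr8:125000001-125010000, the minus strand had 48.6% in replicate 1, 62.4% in replicate 2 and 25% in the other libraries (adjusted p = 0.00196, Fisher's exact test).

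Block windows were intermediate, with a median score of 0.81 and a median of 33.3% of the weaker strand in mixed tiles. Their leading example, chr17:56750001-56760000, began with plus-strand cDNAs, 38 against 6 in the fourth tile, passed through 14 against 26 in the sixth and ended with 4 against 34. Replicate 1 had 17 plus and 33 minus cDNAs there and replicate 2 had 56 and 57. A similar change from plus to minus was seen in chr11:60010001-60020000, where the first tile had 29 plus and 4 minus cDNAs and the last 4 and 42, and in chr10:127560001-127570000, with 62 and 3 in the first and 2 and 28 in the last. In chr6:24560001-24570000 the plus strand led through most of the window, with 41 cDNAs against 8 in the seventh tile, and the minus strand in the last tile only, with 38 against 5. In chr7:52110001-52120000 the plus strand was low throughout, with 1 to 13 cDNAs per tile, and 78 of the 87 minus-strand cDNAs lay in the last 2 tiles, 26 and 52.

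**Figure D3:**
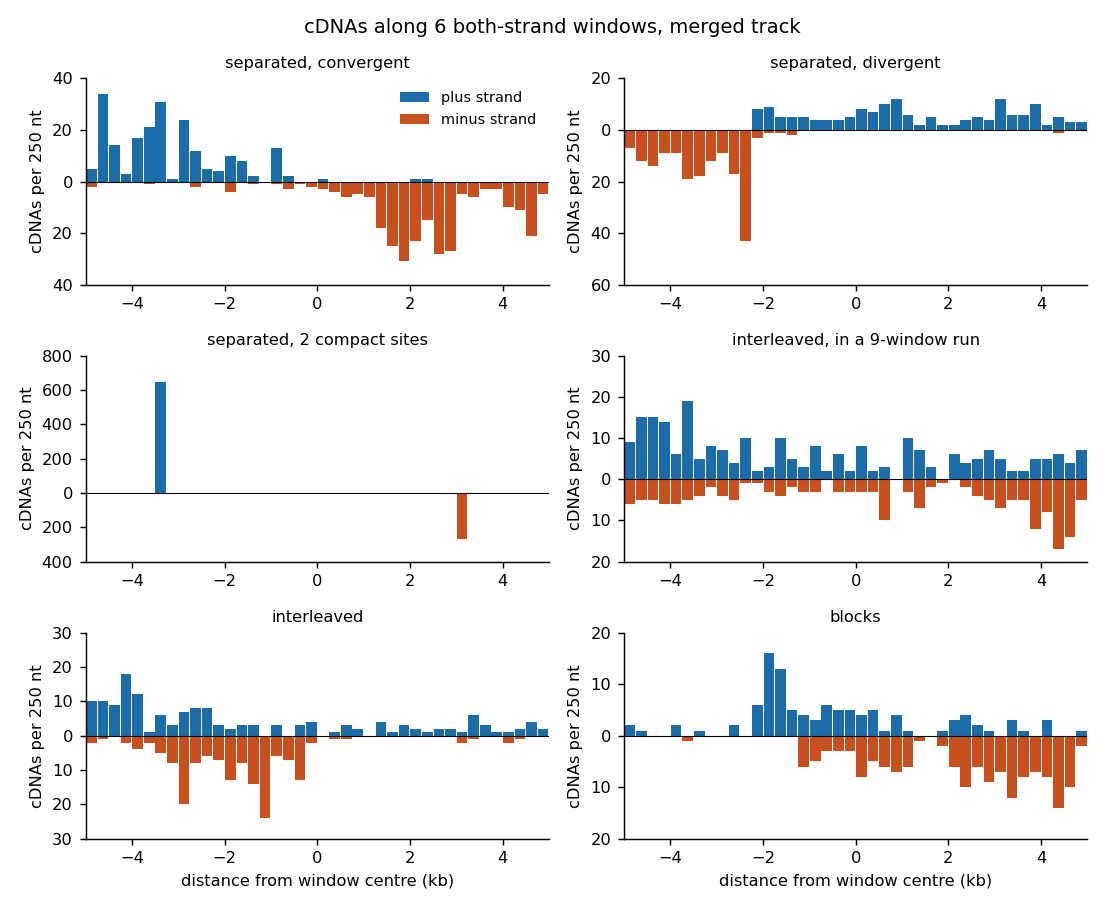
cDNAs of the merged track per 250 nt (y axis, plus strand upward in blue, minus strand downward in orange) against the distance from the window's centre in kb, for 6 named windows: top row chr17:35280001-35290000 and chr8:11310001-11320000, middle row chr6:47730001-47740000 and chr7:150450001-150460000, bottom row chr10:80660001-80670000 and chr17:56750001-56760000. The strands meet at a breakpoint in the top row, form 2 compact sites of 644 and 266 cDNAs in the middle left panel, and overlap in the other 3 panels.

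The neighbouring windows, whose counts did not decide whether a window was a member, were compared next. A neighbour's strand was called where it was no member itself, held 10 or more cDNAs and had 80% or more of them on that strand, and both neighbours could be called for 630 of the 1734 both-strand windows. The classes were covered unequally, with 239 of 421 separated, 256 of 983 interleaved and 135 of 330 block windows. The rule still enters here. Members were left out as neighbours, and other windows with 50 or more cDNAs meet the 80% limit by definition. Neighbours were on opposite strands for most of the 630: plus on the left and minus on the right (convergent) around 242, 38.4% (Wilson 95% interval 34.7% to 42.3%), and minus on the left and plus on the right (divergent) around 205, 32.5% (29.0% to 36.3%). The remaining 183, 29.0%, lay between neighbours of the same strand. Around windows of 50 or more cDNAs that were not members, neighbours were on the same strand in 96.0% (16010 of 16672). With a limit of 90% for the neighbours, 26.5% of the both-strand windows were between convergent and 47.1% between divergent neighbours.

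Divergent and convergent surroundings went with different arrangements inside the window. Between divergent neighbours 172 of 205 windows were separated, 83.9% (Wilson 95% interval 78.3% to 88.3%), and 12 interleaved, 5.85% (3.38% to 9.95%). Between convergent neighbours 35 of 242 were separated, 14.5% (10.6% to 19.4%), 139 interleaved, 57.4% (51.1% to 63.5%), and 68 blocks, 28.1%. Windows between neighbours of the same strand were interleaved in 57.4% of cases (105 of 183). Of the separated windows whose neighbours could be called, 171 of 190 divergent ones lay between divergent neighbours, and 35 of 49 convergent ones between convergent neighbours (71.4%, 57.6% to 82.2%). The intervals for divergent and convergent surroundings did not overlap, but adjacent windows can share a transcript and are not independent replicates.

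The same difference was seen in each source of cDNAs read alone, where windows with 5 or more cDNAs on each strand were scored. Between divergent neighbours a score of 0.9 or more was reached by 81.4% of windows in replicate 1 (79 of 97), 83.2% in replicate 2 (163 of 196) and 90.9% in the other libraries (140 of 154). Between convergent neighbours it was reached by 19.2% in replicate 1 (29 of 151), 13.0% in replicate 2 (31 of 238) and 40.1% in the other libraries (71 of 177, Wilson 95% interval 33.2% to 47.5%). The score can rise when few cDNAs are available. The other libraries were less deep than replicate 2 and deeper than replicate 1, and each source was scored over its own set of windows. The cause of the differences between the sources was not tested. Neighbours and arrangement come from the same libraries, so this is a description of how strand signal continued along the genome.

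**Figure D4:**
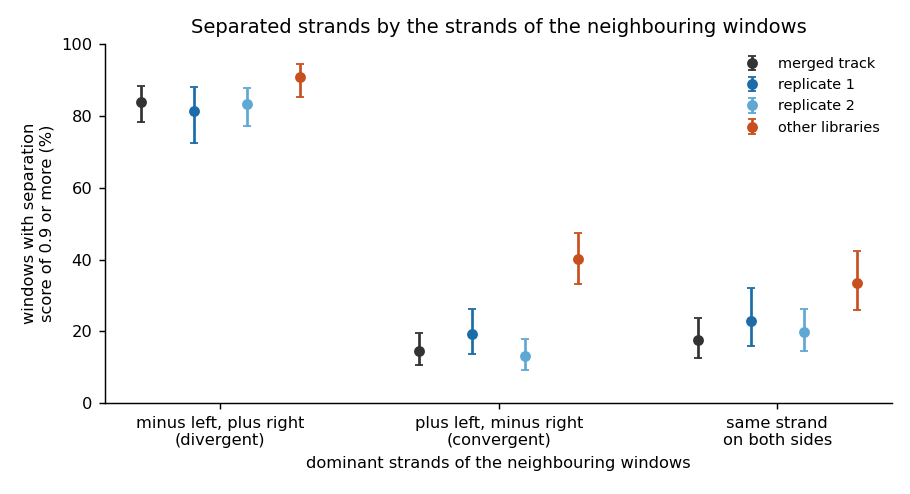
Percentage of both-strand windows with a separation score of 0.9 or more (y axis) by the dominant strands of their 2 neighbouring windows (x axis), in the merged track, each replicate and the other libraries. Points are percentages and bars 95% Wilson intervals, and the values between divergent neighbours, from 81.4% to 90.9%, lie above those between convergent ones, from 13.0% to 40.1%.

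Both-strand windows often lay side by side. Where the next window to the right also held 50 or more cDNAs, it was a both-strand window for 378 of 1092 both-strand windows, 34.6% (Wilson 95% interval 31.9% to 37.5%), and for 699 of 14461 other windows, 4.83% (4.50% to 5.20%). The 1734 windows formed 1356 stretches: 1086 stood alone, 199 were pairs and 71 were runs of 3 or more adjacent windows, which held 250 windows in all. In those runs 80.8% of windows were interleaved (202 of 250, Wilson 95% interval 75.5% to 85.2%) and 6.80% separated, against 45.7% (496 of 1086, 42.7% to 48.6%) and 33.5% among windows that stood alone. Runs of 5 or more windows numbered 6.

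The longest run covered 100 kb on chromosome 14, chr14:70000001-70100000, in 10 windows, 8 of them interleaved. The plus strand held 40.05% of its cDNAs in replicate 1 (169 plus, 253 minus; Wilson 95% interval 35.5% to 44.8%), 40.5% in replicate 2 (446 and 655; 37.6% to 43.4%) and 44.7% in the other libraries (135 and 167; 39.2% to 50.3%). The weaker strand's share ranged from 25.8% to 49.7% over its windows, and the plus strand was the stronger in 2 of them. Replicates thus gave the same proportion within their intervals.

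The run on chromosome 7 covered 90 kb, chr7:150400001-150490000, in 9 windows, all interleaved, and held 1440 plus and 1271 minus cDNAs, the most of any run of 5 or more. Its plus-strand share was 52.7% in replicate 1 (288 plus, 259 minus; 48.5% to 56.8%), 54.0% in replicate 2 (932 and 794; 51.6% to 56.3%) and 50.2% in the other libraries (220 and 218; 45.6% to 54.9%). The stronger strand changed along it. In the third window, chr7:150420001-150430000, the minus strand led with 251 cDNAs against 99, and in the seventh, chr7:150460001-150470000, the plus strand led with 255 against 168. On the right the run ended with chr7:150480001-150490000, where 95% of the minus-strand cDNAs lay before position 150482431 while the plus strand went on to the window's end, into a neighbour dominated by the plus strand.

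**Figure D5:**
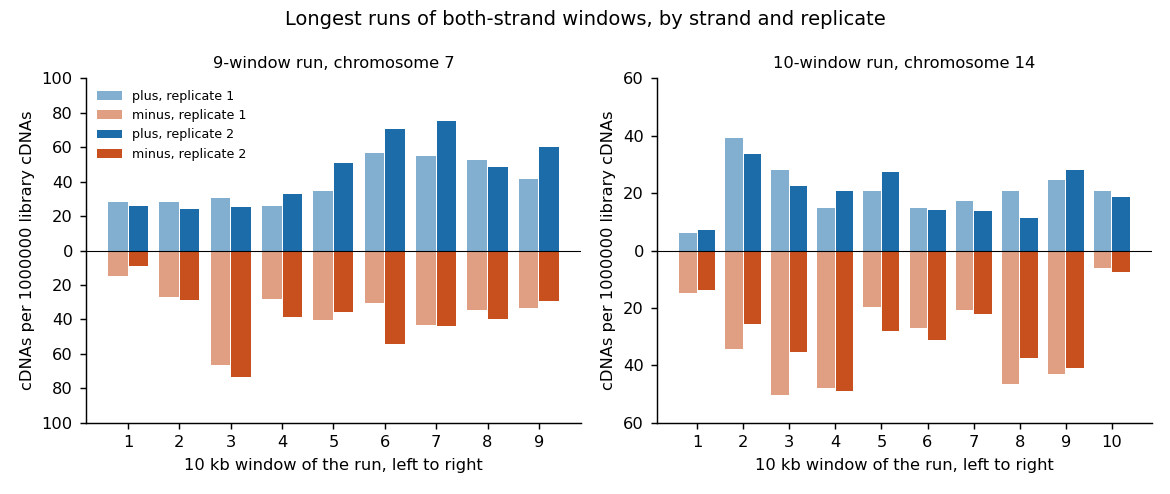
cDNAs per 1000000 cDNAs of the library (y axis, plus strand upward in blue, minus strand downward in orange) in each 10 kb window of the 2 longest runs, from left to right, with replicate 1 in the lighter and replicate 2 in the darker shade. Both replicates show cDNAs on both strands in all 9 windows of the chromosome 7 run and all 10 of the chromosome 14 run, and the minus strand peaks in the third window of the chromosome 7 run.

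A run of 6 interleaved windows on chromosome 4, chr4:19530001-19590000, was balanced in sum, with 55 plus and 56 minus cDNAs in replicate 1, 153 and 152 in replicate 2 and 59 and 62 in the other libraries. In the merged track the plus strand was the stronger in its first 3 windows, such as 93 against 45 in the first, and the minus strand in the last 3, such as 44 against 22 in the last. The run at chr7:80520001-80570000, 5 interleaved windows, had more plus-strand than minus-strand cDNAs of the merged track in each of them. Its plus-strand share was 64.2% in replicate 1, 60.2% in replicate 2 and 77.2% in the other libraries (Wilson 95% interval 70.1% to 83.1%). In the last runs of 5 windows the other libraries differed from the replicates. At chr2:38680001-38730000 the plus strand had 62.7% in replicate 1 and 67.0% in replicate 2 but 33.0% in the other libraries (24.9% to 42.3%). At chr16:91680001-91730000 it had 43.8% and 38.6%, against 17.4% (11.5% to 25.6%).

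Most both-strand windows reached the 20% limit in each replicate as well. Replicate 1 had 10 or more cDNAs in 1432 of the both-strand windows, and the strand that was weaker in the merged track held 20% or more of them in 1221, 85.3%. Replicate 2 had 10 or more in 1732, of which 1555 reached 20%, 89.8%. In the other libraries 1244 of 1670 did, 74.5%. No upper limit was set on this share, so a source with cDNAs almost only on that strand would count too. The upper quartile of the share was 44.8% in replicate 1, 43.1% in replicate 2 and 44% in the other libraries. Since the replicates are part of the merged track, windows were also chosen without 1 replicate and read in the replicate left out. Of 1290 windows chosen without replicate 1, 1128 had 10 or more cDNAs in it. Of these, 924 reached 20% in replicate 1, 81.9% (Wilson 95% interval 79.6% to 84.1%). Over all 15859 windows with 50 or more remaining cDNAs and 10 or more in replicate 1 the background was 7.91%. Over those that did not meet the rule it was 2.25% (331 of 14731). Chosen without replicate 2, 438 of 531 windows reached it in replicate 2, 82.5% (79.0% to 85.5%), against a background of 7.66% over all windows and 2.06% over the others. Median shares in the replicate left out were 33.3% and 34.8%, again without an upper limit on the share.

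Shares in individual windows were less precise. Over the 1432 windows with 10 or more cDNAs in both replicates, the shares differed by a median of 8.80 percentage points, and 1122 windows, 78.4%, reached 20% in both replicates while 44, 3.07%, reached it in neither. Pearson's r between the replicates' shares was 0.50 and Spearman's rho 0.48 across these windows, which share the libraries and were chosen on their sum. The arrangement was read in a replicate where it had 50 or more cDNAs in the window and 5 or more on each strand. Against the class in the merged track, of which the replicate is a part, the class was the same in 474 of 580 windows in replicate 2, 81.7%, and in 37 of 43 in replicate 1.

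Agreement was lower for replicate 2 when windows and classes were set without it. The class was then the same in 268 of 408 windows, 65.7% (Wilson 95% interval 61.0% to 70.1%). Interleaved windows kept it in 167 of 202 cases, 82.7% (76.9% to 87.3%), separated ones in 61 of 99, 61.6% (51.8% to 70.6%), and blocks in 40 of 107, 37.4% (28.8% to 46.8%). As background, replicate 2 read 235 of all 408 windows as interleaved, 80 as separated and 93 as blocks. Set without replicate 1, the class was the same there in 40 of 48 windows, 83.3% (70.4% to 91.3%), with 27 of 28 interleaved, 13 of 17 separated and 0 of 3 block windows. Replicate 1 read 30 of all 48 as interleaved, 14 as separated and 4 as blocks. The orientation of windows that were separated without the replicate was the same in it for 99 of 99 in replicate 2 and 17 of 17 in replicate 1.

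No difference in strand counts between the replicates passed the test. Of 19600 windows with 10 or more cDNAs in each replicate, 0 had an adjusted p under 0.05 (Fisher's exact test, Benjamini-Hochberg; background 0%), and 161, 0.821%, had an unadjusted p under 0.05. Among the 1432 both-strand windows tested, 51, 3.56%, had an unadjusted p under 0.05, and the smallest adjusted p was 0.27. A window with few weaker-strand cDNAs cannot give a small p in this test, which lowers the share over all windows. With a median of 15 cDNAs per both-strand window in replicate 1 and 40 in replicate 2, small differences were not detectable at this depth. Large ones could go uncalled too. In chr16:91680001-91690000 the minus strand had 16.7% in replicate 1 and 48.5% in replicate 2. The counts were 20 plus and 4 minus cDNAs in replicate 1 and 34 and 32 in replicate 2 (unadjusted p = 0.0074, Fisher's exact test).

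Both replicates together differed from the other libraries in more windows. Of 21736 windows tested 186 were called, a background of 0.856%, and of the 1669 both-strand windows tested 122 were called, 7.31% (adjusted p under 0.05, Fisher's exact test, Benjamini-Hochberg over all windows). Power is greater where both strands are covered, so the shares are not a comparison of like windows. The weaker strand held a lower share in the other libraries in 66 of the 122 and a higher one in 56. In 57 of them it was under 20% in the other libraries and in 36 under 20% in the replicates. The strand followed is the one that was weaker in the merged track. These counts therefore do not tell whether both strands were covered in the source where its share was higher. Separated windows were called in 21 of 411 cases, 5.11% (Wilson 95% interval 3.37% to 7.68%), interleaved ones in 74 of 943, 7.85% (6.30% to 9.74%), and blocks in 27 of 315, 8.57% (5.96% to 12.2%). Read in the other libraries, which are part of the merged track too, 53 of 55 separated windows kept the class they had in it. So did 44 of 96 interleaved ones, 45.8% (36.2% to 55.8%), and 15 of 35 blocks, 42.9% (28.0% to 59.1%). The other libraries hold fewer cDNAs than the merged track, so fewer tiles reach 5 cDNAs and the score can rise. The effect of this depth on the classes was not tested. What these libraries are was not stated by the sources used here.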

How the data were processed

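SRSF3-GFP iCLIP was read from 3 deposited single-nucleotide tracks of neonatal cardiomyocytes: replicate 1, replicate 2 and a merged track. The authors deposited a signed score per nucleotide: its size counts cDNAs, its sign gives the strand, and libraries keep their own totals. The build is mm9 and the annotation Ensembl 59, per the file headers. Bowtie 0.10.1 did the mapping, per the submitters' processing notes. The treatment of duplicate cDNAs and of reads with several matches was not given in the sources used here.

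From these scores, cDNAs were summed per 10 kb window and strand (Python 3.11.15, pandas 2.3.3, scipy 1.17.1). Random and unplaced sequences and the mitochondrial genome were left out. The other libraries are the merged track minus both replicates. Strand counts were compared between libraries with two-sided Fisher's exact tests and Benjamini-Hochberg adjustment over all windows tested. The comparison with the other libraries, the 200 nt stretches, the library-wise separation scores, the classes set without a replicate and the counts of adjacent windows were added after the data were seen. Intervals are 95% Wilson intervals and, like the p-values, cover counting error only. The classes and the strand test were tested on simulated data.

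The members, the measures and the rule for named windows were chosen with earlier results of these data known. Named windows are the 10 separated, 10 interleaved and 5 block windows with the most weaker-strand cDNAs, the 5 most balanced windows with 200 or more cDNAs, the 3 windows on either side of the 20% limit at that depth, members called between replicates, and runs of 3 or more adjacent members. Of the runs, those of 5 or more windows are described and the others counted. The reference used here was on another build, GRCm38, so windows carry mm9 positions and no gene names, no sequence is printed, and the labelled cell type was not checked against marker genes. The 6 heart samples are not analysed here.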

Additional observations from a re-analysis of the deposited data

Results flagged for a closer look

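Outside the assembled chromosomes, on random and unplaced sequences that the comparisons leave out, 2 of 17 windows with 50 or more cDNAs were covered on both strands. They lay on the unplaced parts of chromosome 9, positions 370001 to 380000, with 47 plus and 14 minus cDNAs, and of chromosome Y, positions 27590001 to 27600000, with 26 on each strand. They were picked out as signal in data that no comparison here uses.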

How the results depend on the processing

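The number of both-strand windows, 1734, was 547 with a minimum of 100 cDNAs, 2986 and 1038 with limits of 10% and 30% for the weaker strand and 934 with 5 kb windows, by construction of these rules. Leaving out 1 replicate gave 531 to 1290 windows, of which 24.5% to 26.4% were separated, 46.9% to 54.7% interleaved and, of the separated ones, 48.6% to 75.9% divergent; the lower number of windows and the lowest shares of interleaved and divergent windows came without replicate 2, and the cause of the change in shares was not tested. The separated share was 19.9% at 100 cDNAs, 22.1% at the 10% limit, 14.7% in 5 kb windows, and 41.3% and 14.2% at separation scores of 0.8 and 0.95. Interleaved windows made up 62.0%, 51.8% and 73.4% under the first 3 of these, 50.5% at a score of 0.8, and 30.4% and 63.3% with tiles of 500 nt and 2 kb. The minimum of 5 cDNAs per tile was the same for all tile sizes. Divergent windows were 64.2% of the separated ones at 100 cDNAs, 62.4% at a score of 0.8 and 90.7% at 0.95. With 20 or more cDNAs required, 88.7% of both-strand windows reached 20% in replicate 1. With 90% required of the neighbours, 26.5% lay between convergent and 47.1% between divergent ones. Shifting the windows by 5 kb, counting each position once or adding the unplaced sequences left the number and classes of windows within 1.5 times or within their intervals, and 0 windows had strand counts that differed between the replicates (adjusted p under 0.05, Fisher's exact test) with 20 cDNAs required in each replicate, with each position counted once or with 100 merged cDNAs, the 3 alternatives run for this test. No paired analysis was possible because the 2 iCLIP replicates belong to a single group and the 6 heart samples, whose numbers are shared between groups, are not analysed here. Depth limits all values per window, most in replicate 1.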

Other observations

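Exact coincidence of the strands was counted as well. How much of it the sparse coverage alone would give was not tested. Over the nuclear chromosomes 980 nucleotides carried a cDNA on both strands in the merged track, and 331 of them, 33.8%, lay in both-strand windows, spread over 245 windows. The 1734 windows held 56088 weaker-strand cDNAs.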
